A study of Mus musculus with 15 samples.

Results

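Transient receptor potential (TRP) channel genes of sensory neurons were followed through lumbar dorsal root ganglia (DRG) of mice lacking the miR-183 cluster and of their controls, before and after a nerve injury. The 9 genes were Trpv1, Trpv2, Trpa1, Trpm8, Trpm3, Trpm2, Trpc1, Trpc5 and Trpc6, taken by symbol from a count table of 39179 Ensembl genes, and all 9 were found and passed the filter on low counts. Trpa1 and Trpm8, the irritant and cold channels, were lower in all naive knockout libraries than in all naive control libraries, while the other 7 overlapped between these groups. Neither Trpa1 nor Trpm8 passed the main edgeR test there (adjusted p = 0.0666 and 0.103). Among all genes tested, 9.63% did not overlap between these groups, and 4.75% had all knockouts lower. Poly(A) RNA of bulk L4 to L6 ganglia was sequenced from 15 adult mice aged 3 to 6 months on a mixed background, mainly C57bl6. The knockouts carried Wnt1-Cre and a floxed allele written in the labels as "Wnt1-Cre; mirflox/flox". Wnt1-Cre acts in the neural crest lineage, from which DRG neurons and their glia arise, so the deletion is not restricted to neurons. The groups were 4 naive knockouts (replicates 4, 5, 8 and 9) with 5 naive controls (replicates 1, 2, 3, 6 and 7), and 3 knockouts with spared nerve injury (SNI; replicates 13, 19 and 21) with 3 controls with SNI (replicates 15, 18 and 23). The controls carried Wnt1-Cre alone, except naive control 7 and SNI controls 18 and 23, which were wild type, so 1 of the 3 SNI controls carried Cre. In SNI the common peroneal and tibial branches of the sciatic nerve are ligated and cut and the sural branch is left intact. The time from surgery to collection is not given in the sources used here.

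TRP channels are cation channels made of 4 subunits, and several of them turn heat, cold or chemical irritants into depolarisation of the sensory nerve ending. Trpv1 opens to noxious heat, protons and capsaicin, Trpa1 to electrophilic irritants such as mustard oil and also downstream of itch receptors, and Trpm8 to cooling and menthol. Trpm3 and Trpm2 contribute to heat and warmth detection, Trpv2 was first described as a channel of very high heat, and the Trpc channels are non-selective channels gated downstream of phospholipase C. In mouse DRG, Trpm8 marks a small class of cold-sensing neurons, while Trpv1 and Trpa1 are found mainly in small-diameter nociceptors and itch neurons.

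The cluster encodes miR-183, miR-96 and miR-182 in 1 transcript on chromosome 6 (minus strand). The mature sequences (RefSeq, GRCm38.p6) are shown because their seeds, bases 2 to 8 in capitals, are what a target transcript pairs with, and because the seed of miR-96 shares all but its last base with that of miR-182.
miR-183-5p: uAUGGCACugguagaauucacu
miR-96-5p: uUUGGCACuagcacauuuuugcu
miR-182-5p: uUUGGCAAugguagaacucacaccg
Only the longest annotated 3′ UTR among each gene's coding transcripts was searched (GENCODE M21, GRCm38, sense strand). In it a full match to bases 2 to 8 was found in 3 of the 9 genes. These matches were GTGCCAT for miR-183, GTGCCAA for miR-96 and TTGCCAA for miR-182. No TRP channel gene of the 9 had the longer match that also has an A opposite base 1, which 9.33% of the 14451 tested genes with a 3′ UTR have; 26.8% of those genes have at least 1 match of either kind. The sites are printed with 8 flanking bases a side and the match in capitals.
Trpm3 (miR-96): cttcatagGTGCCAAtttttata
Trpm3 (miR-182): tgaagggaTTGCCAActcaatcc
Trpm2 (miR-183): gtcctcaaGTGCCATgctttgac
Trpc6 (miR-183): cacagtcaGTGCCATtttgcttg
Trpc6 (miR-96): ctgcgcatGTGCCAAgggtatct
The remaining 6 genes, among them Trpv1, Trpa1 and Trpm8, held no match to any of the 3 seeds in their longest annotated 3′ UTR. The 3′ UTR of Trpm3 was 7102 bases long against a median of 1194 bases over the tested genes. A match is a description of the letters and not of a functional site.

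The libraries held 5252920 to 10822762 counts, so that 3 counts corresponded to 0.277 to 0.571 counts-per-million (CPM). Levels are given as CPM after scaling by the trimmed mean of M values (TMM). The cluster itself could not be read in these poly(A) libraries, since Mir183, Mir96 and Mir182 had 0, 1 and 2 counts over all of them, so the knockout rests on the labels. The injury label could be checked: Atf3 averaged 224 ± 44.2 CPM in knockout SNI ganglia and 5.60 ± 1.41 CPM in naive knockout ganglia (SD, n = 3 and 4), and 150.5 ± 1.95 CPM in control SNI ganglia and 7.85 ± 1.5 CPM in naive control ganglia (SD, n = 3 and 5). Replicate 23 of the control SNI group stood apart, with the lowest total and 7.43% mitochondrial counts against 2.26 to 3.60% in the other 14 libraries. Several values of Trpa1, Trpm8, Trpm2 and Trpc6 that it moved are given without it as well. The animal numbers of the injured knockouts, the injured controls and the naive mice form 3 separate ranges, so neither injury nor, among the injured mice, genotype can be told apart from whatever else differed between those ranges; the averages over both conditions share this limit. All 11 pan-neuronal genes examined, Snap25 and Rbfox3 among them, were detected in every group, and their summed level was 10103 to 10785 CPM in naive knockout ganglia, 9054 to 10420 CPM in naive control ganglia, 11573 to 12214 CPM in knockout SNI ganglia and 10380 to 12267 CPM in control SNI ganglia.

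Trpv1 had the highest level per length of the 9 genes and Trpc5 the lowest, in all 4 groups. Dividing CPM by the summed length of the exons, Trpv1 reached 48.8 ± 6.70 CPM per kb in naive knockout ganglia and 44.6 ± 5.21 CPM per kb in naive control ganglia (SD, n = 4 and 5). In naive control ganglia Trpa1 (21.4 ± 4.01 CPM per kb) and Trpv2 (19.04 ± 1.67 CPM per kb) came next and overlapped, followed by Trpm8 at 12.95 ± 0.789 CPM per kb (SD, n = 5). Trpc6 (4.53), Trpc1 (3.33), Trpm2 (3.27) and Trpm3 (2.07) lay lower in CPM per kb, with Trpc1 and Trpm2 overlapping, and Trpc5 averaged 0.299 CPM per kb. In naive knockout ganglia Trpv2 (17.3 to 19.1 CPM per kb) stood above Trpa1 (13.7 to 16.6 CPM per kb) without overlap, so the rank of Trpa1 was the main difference between the genotypes in this order. The exon models differ in length, from 3681 bases for Trpv1 to 24437 bases for Trpm3. With the longest coding transcript in place of all exons, a choice made after seeing the data, Trpv2 led Trpa1 in naive control ganglia too, at 29.4 against 21.4 CPM per kb, and the other neighbours kept their order there.

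**Figure D1:**
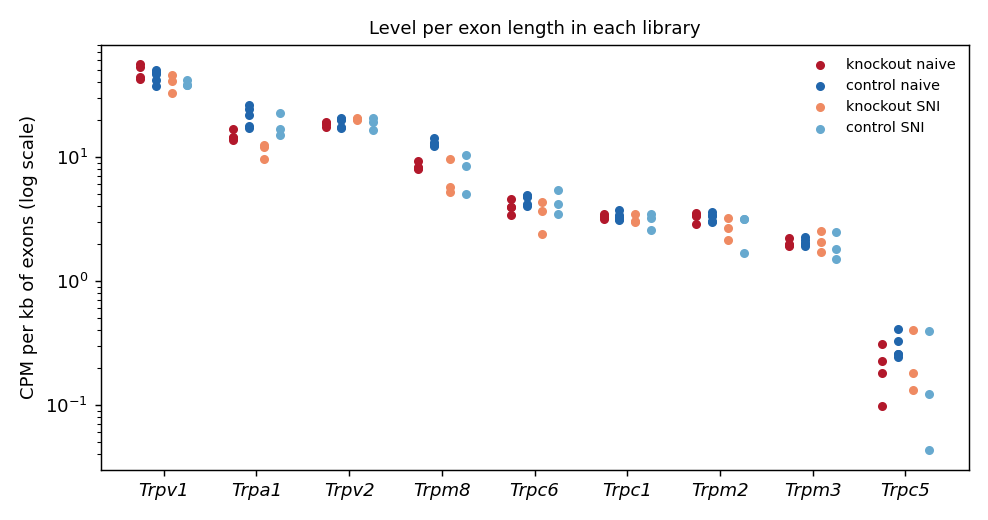
CPM per kb of exons (log scale) of each gene in each library, 1 point per library, with the groups in the order knockout naive, control naive, knockout SNI and control SNI from left to right within a gene. Trpv1 lies highest, at 37.0 to 56.1 CPM per kb in the naive libraries, and Trpc5 lowest, at most 0.412 CPM per kb in them.

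The heat channels differed little between knockout and control. Trpv1 (chromosome 11, 73234292 to 73261242, plus strand, GRCm38) had 156, 194, 207 and 162 CPM in the naive knockout libraries, against 153, 177, 136, 171 and 184 CPM in the naive control libraries. After injury it had 150.5, 168 and 121 CPM in the knockouts and 152, 139.7 and 140.1 CPM in the controls. The groups overlapped in every comparison. Its log2 fold change for knockout against control was 0.13 ± 0.11 (SE; 95% interval -0.11 to 0.37, edgeR adjusted p = 0.774) in naive ganglia and 0.03 ± 0.14 (-0.27 to 0.32, adjusted p = 0.933) after SNI. For SNI against naive it was -0.29 ± 0.13 in knockouts (adjusted p = 0.159) and -0.19 ± 0.13 in controls (adjusted p = 0.482), so lower estimates after injury in both genotypes did not pass the test.

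Trpv2 (chromosome 11, 62574486 to 62600515, plus strand), a channel also expressed in larger sensory neurons and in macrophages, overlapped between the genotypes in both conditions. It had 77.6, 83.5, 82.3 and 85.4 CPM in naive knockout libraries and 76.7, 91.1, 77.8, 89.7 and 91.7 CPM in naive control libraries. Knockout SNI libraries had 92.5, 90.8 and 89.7 CPM, all above the naive knockouts, while control SNI libraries had 93.0, 86.3 and 73.9 CPM, of which the last is replicate 23. The increase in knockouts was small, with a log2 fold change of 0.15 ± 0.09 (95% interval -0.05 to 0.34, edgeR adjusted p = 0.319), and did not pass the test. Macrophage genes were higher after SNI in the same libraries, where 10.1% of all genes were called in knockouts and 2.48% in controls. By edgeR at an adjusted p under 0.05, 6 of 18 listed macrophage genes rose in knockouts and 8 of 18 in controls. These include Csf1r, a macrophage growth factor receptor, in knockouts (log2 fold change 0.94, adjusted p = 1.01e-05) and Cx3cr1, the fractalkine receptor, in controls (1.55, adjusted p = 2.21e-04). The summed level of the macrophage list was 497 to 600.4 CPM in knockout SNI ganglia and 339.7 to 503 CPM in naive knockout ganglia, and 369 to 695 CPM in control SNI ganglia and 280.1 to 368 CPM in naive control ganglia. The part of macrophages in the Trpv2 values was not tested.

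Trpm3 (chromosome 19, 22139046 to 22995410, plus strand), a heat and pregnenolone sulfate receptor, had 48.0, 54.6, 47.6 and 46.4 CPM in naive knockout libraries and 48.9, 52.2, 49.7, 55.1 and 47.1 CPM in naive control libraries. After SNI it spread more widely, with 61.8, 49.9 and 42.1 CPM in knockouts and 44.4, 60.6 and 36.4 CPM in controls. The groups overlapped throughout, and its log2 fold change lay between -0.09 and 0.15 in the 5 comparisons. Trpm2 (chromosome 10, 77907722 to 77970563, minus strand), a channel gated by ADP-ribose and linked to warmth sensing, had 42.5, 43.9, 41.5 and 36.0 CPM in naive knockout libraries and 41.9, 42.4, 37.9, 44.4 and 37.0 CPM in naive control libraries. It had 40.4, 33.5 and 26.6 CPM in knockout SNI libraries and 39.3, 39.5 and 20.9 CPM in control SNI libraries. For knockout against control in naive ganglia the log2 fold change was -0.04 ± 0.13 for Trpm3 (95% interval -0.31 to 0.23, edgeR adjusted p = 0.963) and 0.01 ± 0.15 for Trpm2 (-0.31 to 0.33, adjusted p = 0.995). For Trpm2 the estimate for SNI against naive was -0.30 in knockouts and -0.27 in controls (adjusted p = 0.284 and 0.452), and the control value was -0.04 without replicate 23.

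**Figure D2:**
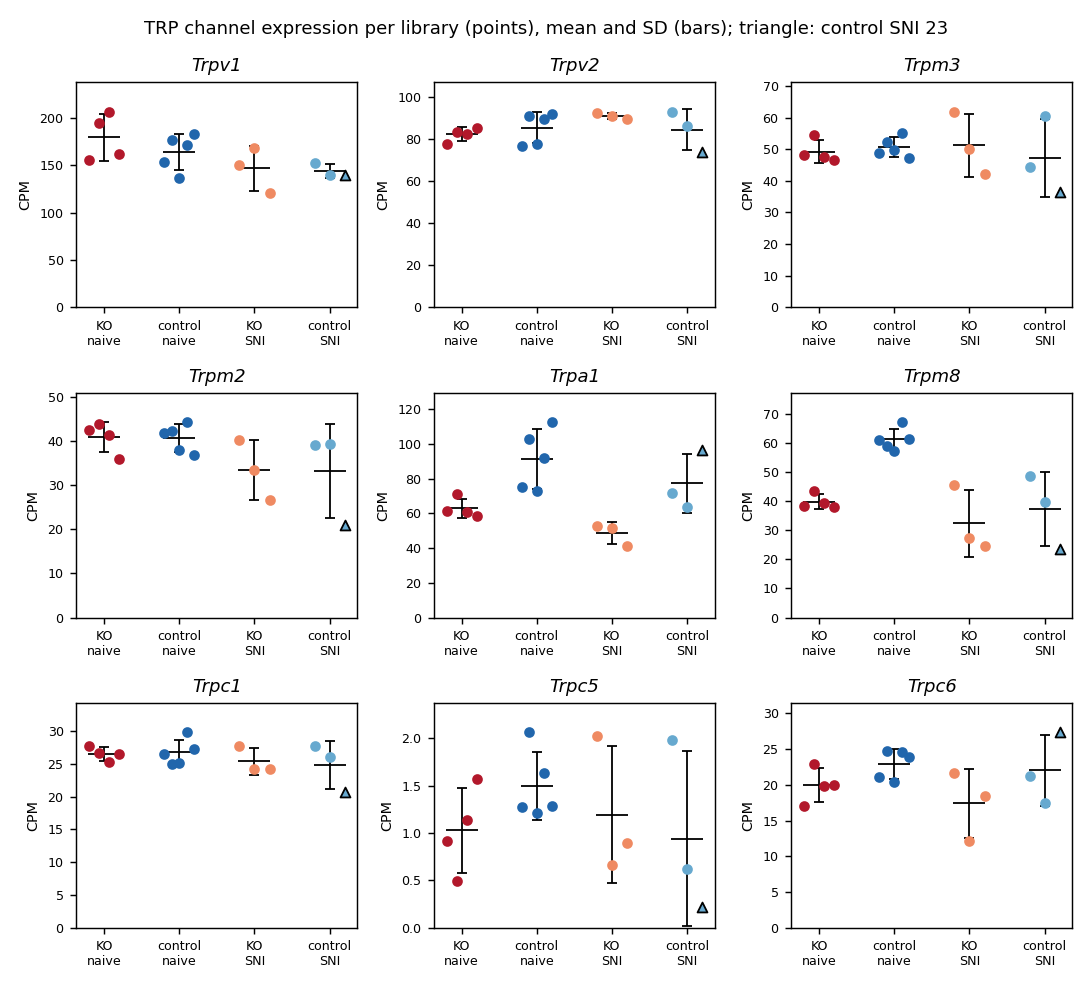
CPM of the 9 genes in each library (points), with the mean and SD of each group (bars); groups run from knockout naive, control naive and knockout SNI to control SNI, and the triangle marks control SNI replicate 23. Trpa1 lies at 58.6 to 70.9 CPM in naive knockouts, below all naive controls (73.1 to 113 CPM), and Trpm8 at 38.1 to 43.7 CPM, below all naive controls (57.4 to 67.3 CPM).

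The irritant and itch channel Trpa1 (chromosome 1, 14872648 to 14918862, minus strand) was lower in every knockout library than in every control library of the same condition. It had 61.4, 70.9, 60.7 and 58.6 CPM in naive knockouts, against 75.4, 103, 73.1, 92.1 and 113 CPM in naive controls. After SNI it had 52.8, 51.5 and 41.3 CPM in knockouts, against 71.8, 63.8 and 96.6 CPM in controls. The groups did not overlap in either condition, and the spread was wider in controls (SD 17.1 CPM in both conditions) than in knockouts (SD 5.46 and 6.32 CPM). The log2 fold change for knockout against control was -0.53 ± 0.14 in naive ganglia (SE; 95% interval -0.83 to -0.24), with an edgeR adjusted p of 0.0666 over the 16976 genes tested. After SNI it was -0.67 ± 0.17 (-1.03 to -0.30), with an adjusted p of 0.0758. Neither passed the threshold of 0.05, and the estimates correspond to levels of 0.690 and 0.630 times those of the controls. In bulk ganglia, fewer neurons of a type and less of a transcript per neuron cannot be told apart.

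The same contrast taken over both conditions, a choice made after seeing these values, gave a log2 fold change of -0.60 ± 0.11 for Trpa1 (95% interval -0.84 to -0.36, edgeR adjusted p = 0.00464). It was called with each of the 15 libraries left out in turn (adjusted p 0.00268 to 0.0194). In that contrast Trpa1 was the only gene of the 9 called, 1 of 9 where 4.17% of all genes tested were called and 1.98% called lower. Trpm8, at -0.43 (adjusted p = 0.108) with all libraries, was called in it without control SNI replicate 23 (-0.54, adjusted p = 0.0105) and without knockout SNI replicate 13 (-0.59, adjusted p = 0.0133). With Wnt1-Cre controls only it was called as well (-0.61, adjusted p = 0.0301; 4.21% of genes called), in a fit with 1 SNI control, replicate 15, which is assumed to vary like the other groups. Injury gave lower estimates of Trpa1 as well, -0.38 ± 0.16 in knockouts, whose SNI libraries all lay below the naive ones, and -0.25 ± 0.15 in controls (edgeR adjusted p = 0.148 and 0.455). The control value was -0.42 without SNI replicate 23 (adjusted p = 0.137). Averaged over both genotypes, again a choice made after seeing the values, the injury estimate of Trpa1 was -0.31 ± 0.11 (edgeR adjusted p = 0.0808). That average was called in 1 of the 15 fits without 1 library, the fit without control SNI replicate 23 (adjusted p = 0.0108). The difference between these injury effects, knockout minus control, was -0.13 ± 0.22 (95% interval -0.60 to 0.34, adjusted p = 0.801), and 0.06 without that replicate.

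The cold channel Trpm8 (chromosome 1, 88277661 to 88389293, plus strand) was lower in every naive knockout than in every naive control, with little spread within either group. It had 38.3, 43.7, 39.3 and 38.1 CPM in naive knockouts, against 61.1, 59.2, 57.4, 67.3 and 61.4 CPM in naive controls. After SNI the libraries spread widely and the genotypes overlapped, with 45.6, 27.2 and 24.5 CPM in knockouts and 48.7, 39.7 and 23.7 CPM in controls. The log2 fold change for knockout against control was -0.62 ± 0.18 in naive ganglia (95% interval -0.9997 to -0.24, edgeR adjusted p = 0.103), a level of 0.650 times that of the controls. After SNI it was -0.23 ± 0.22 (-0.70 to 0.24, adjusted p = 0.544), and it ranged from -0.55 without knockout SNI replicate 13 to -0.00652 without control SNI replicate 15, with -0.45 without control SNI replicate 23. The difference between the 2 genotype effects is that between the injury effects, 0.39 ± 0.28 for knockout minus control (-0.21 to 0.99, adjusted p = 0.519), so the effects were not shown to differ. It ranged from 0.07 without knockout SNI replicate 13 to 0.61 without control SNI replicate 15, with 0.17 without control SNI replicate 23.

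All control SNI libraries had less Trpm8 than all naive controls, and the log2 fold change for SNI against naive in controls was -0.69 ± 0.20 (95% interval -1.11 to -0.27, edgeR adjusted p = 0.0871). Leaving out 1 library, it ranged from -0.92 without control SNI replicate 15 to -0.47 without control SNI replicate 23, the lowest of its group. In knockouts, which started lower, it was -0.30 ± 0.21 (-0.74 to 0.13, adjusted p = 0.353). Averaged over both genotypes, again chosen after seeing the values, Trpm8 fell by 0.50 ± 0.14 on the log2 scale (edgeR adjusted p = 0.0322; 1 of 9 genes called, with 12.4% of all genes called and 4.09% called lower). That call was lost in 11 of the 15 fits that left out 1 library, with an adjusted p of up to 0.0955, and with Wnt1-Cre controls only (-0.31, adjusted p = 0.157; 22.9% of genes called), where the single SNI control is replicate 15, the highest of its group for Trpm8. A long antisense gene, 4930453O03Rik, shares 388 of the 4732 exon bases of Trpm8, and the strand setting of the counting is not given in the sources used here. It had 6.29, 6.14, 5.60 and 8.48 CPM in naive knockouts, against 11.3, 10.3, 9.98, 12.4 and 11.1 CPM in naive controls, and its log2 fold change of -0.74 ± 0.21 (edgeR adjusted p = 0.0969) ran the same way as that of Trpm8. For SNI against naive the antisense gene had estimates of -0.68 in controls and -0.20 in knockouts, and for knockout against control after SNI -0.27. It had 1143 counts in all, against 6540 for Trpm8, but these totals do not show how reads within the shared bases were counted. Such reads cannot be told apart without strand, and their part in the Trpm8 values was not tested.

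Whether Trpa1 and Trpm8 passed the threshold in naive ganglia depended on the model. edgeR over all 15 libraries called 0 of the 9 genes (1.89% of all genes called), and limma-voom also called 0. By edgeR 2 of the 9, Trpa1 and Trpm8, had an unadjusted p under 0.05, beside 1984 of the 16976 genes tested. Without any 1 of the 9 naive libraries neither was called (adjusted p 0.0514 to 0.244 for Trpa1 and 0.145 to 0.275 for Trpm8). DESeq2 called both Trpa1 (log2 fold change -0.53, adjusted p = 0.0249) and Trpm8 (-0.62, adjusted p = 0.0301), 2 of 9 where it called 3.04% of genes. edgeR on the 9 naive libraries alone called both, Trpa1 with an adjusted p of 0.0271 and Trpm8 with 1.76e-05 (6.17% of genes called), where the SNI libraries no longer entered the estimate of spread. With Wnt1-Cre controls only, which leaves out the wild-type mice, both were called again, with log2 fold changes of -0.44 for Trpa1 and -0.62 for Trpm8 (adjusted p = 0.0416 and 0.0385; 4.04% of genes called). Among all genes, 9.63% had naive knockout and control libraries that did not overlap and 4.75% had all knockouts lower, beside 2 of 9 here.

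**Figure D3:**
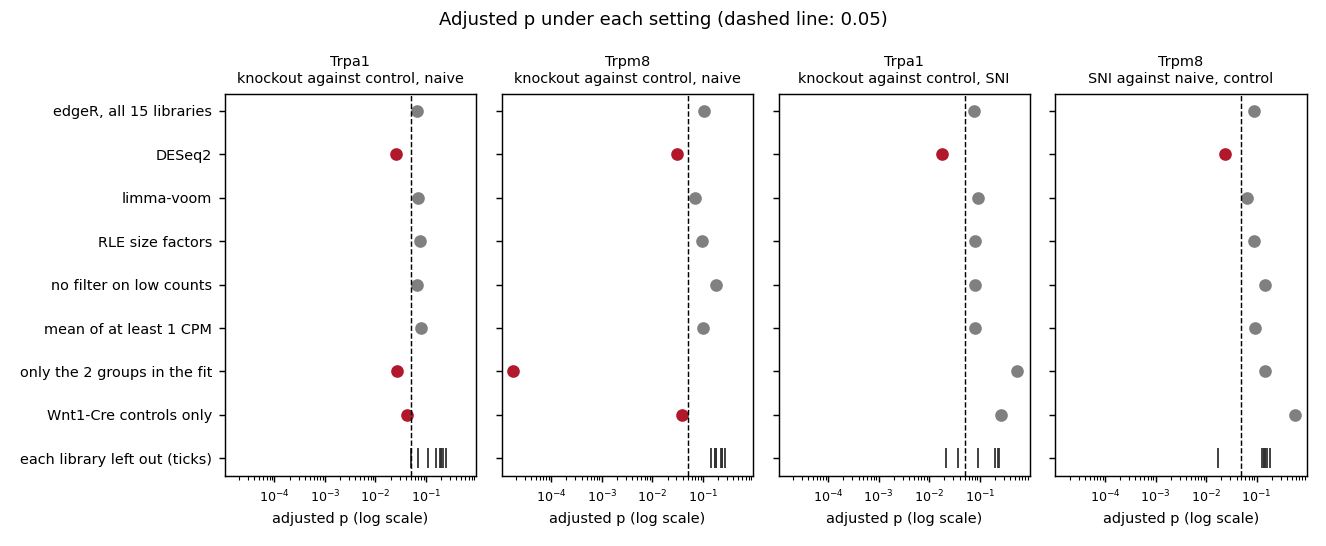
Adjusted p (log scale) of Trpa1 and Trpm8 under each analysis setting, for knockout against control in naive ganglia (both genes), knockout against control after SNI (Trpa1) and SNI against naive in controls (Trpm8); ticks in the lowest line stand for fits without 1 library, the dashed line for 0.05. In naive ganglia DESeq2, the fit of the naive groups alone and the fit with Wnt1-Cre controls only fall under 0.05 for both genes, while edgeR over all libraries gives 0.0666 for Trpa1 and 0.103 for Trpm8.

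After SNI, edgeR called 0 of the 9 genes for knockout against control (1.04% of all genes called). Of the 9, 1 gene, Trpa1, had an unadjusted p under 0.05, beside 3862 of the 16976 genes tested. Trpa1 was the 1 gene of 9 whose libraries did not overlap, beside 16.2% of all genes (8.19% with knockouts lower). DESeq2 called Trpa1 there (adjusted p = 0.018, with 6.94% of genes called), and edgeR did so without control SNI replicate 15 (adjusted p = 0.0212) or replicate 18 (0.0378). Without replicate 23 the log2 fold change was -0.48 and the edgeR adjusted p 0.239. DESeq2 was the only 1 of the 7 other settings to call Trpa1, and the 2-group fit called 0 of all genes. For SNI against naive in controls edgeR called 0 of 9 (2.48% of all genes called). There 1 gene of the 9, Trpm8, had an unadjusted p under 0.05, beside 2668 of the 16976 genes tested. Trpm8 was also the 1 gene of the 9 without overlap (8.21% of all genes, 3.58% with SNI lower). Trpm8 was called there by DESeq2 (adjusted p = 0.0233, with 3.97% of genes called). It was called by edgeR in 1 of the 8 fits without 1 library, that without control SNI replicate 15 (log2 fold change -0.92, adjusted p = 0.0175). Without control SNI replicate 23 the estimate was -0.47. With Wnt1-Cre controls only, which leaves replicate 15 as the single SNI control, the estimate was -0.31.

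For SNI against naive in knockouts edgeR called 0 of 9 while 10.1% of all genes were called. DESeq2 (13.3% of genes called) and limma-voom also called 0. By edgeR 2 of the 9, Trpv1 and Trpa1, had an unadjusted p under 0.05, beside 4589 of the 16976 genes tested. Trpa1, lower, and Trpv2, higher, had no overlap, 2 of 9 beside 34.2% of all genes (17.6% lower and 16.6% higher). The fit on knockouts alone called Trpa1 (adjusted p = 0.0146; 26.9% of genes called), and leaving out knockout SNI replicate 13 gave Trpm8 a log2 fold change of -0.62 (adjusted p = 0.0491). With edgeR the difference between the injury effects called 0 of the 9 and 0 of all genes. At an unadjusted p under 0.05 by edgeR were 0 of the 9, beside 2281 of the 16976 genes tested. DESeq2 called none of the 9 and 0.0708% of genes. The median log2 fold change of the 9 genes was -0.06 for knockout against control in naive ganglia, 0.02 after SNI, -0.21 for SNI against naive in knockouts and -0.19 in controls, beside 0.00, -0.01, -0.02 and 0.02 over all genes tested.

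**Figure D4:**
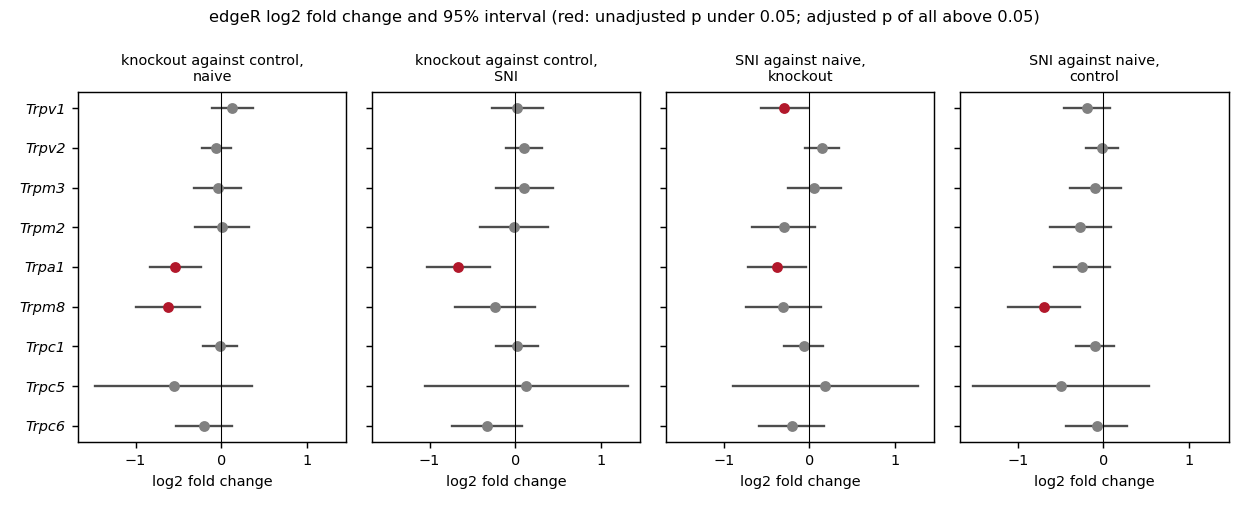
edgeR log2 fold change (points) and 95% interval (lines) of the 9 genes for knockout against control in naive and SNI ganglia and for SNI against naive in knockouts and controls; red points have an unadjusted p under 0.05. In naive ganglia the intervals of Trpa1 (-0.83 to -0.24) and Trpm8 (-0.9997 to -0.24) lie below 0 and the other 7 include it.

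Some markers of nociceptor and itch neuron classes were called in the same libraries. For knockout against control in naive ganglia 1.89% of all genes were called. Of 10 listed non-peptidergic nociceptor genes, 3 fell in naive knockouts by edgeR at an adjusted p under 0.05 and none rose. These were P2rx3, an ATP-gated channel (104, 141, 124 and 124 CPM in knockouts, against 214, 265, 169.6, 279 and 236 CPM in controls; log2 fold change -0.91 ± 0.14, adjusted p = 0.00185), Mrgprd, a receptor for beta-alanine (-0.90 ± 0.16, adjusted p = 0.00623), and Lpar3, a lysophosphatidic acid receptor (-0.93 ± 0.17, adjusted p = 0.00875). The list summed to 2123 to 2522 CPM in naive knockouts and 2353 to 3289 CPM in naive controls, and after SNI to 2534 to 2969 CPM in knockouts and 2083 to 3204 CPM in controls, where none of the 10 was called. The 3 genes of the Mrgpra3 class of itch neurons, in which Trpa1 acts downstream of the itch receptor, all rose in naive knockouts, for example Mrgpra3 with 52.4, 76.8, 50.5 and 44.5 CPM, against 17.5, 18.8, 14.5, 16.8 and 18.99 CPM in naive controls (log2 fold change 1.70 ± 0.21, adjusted p = 4.77e-04). Of 7 genes of the Il31ra class, a separate group of itch neurons, 1 fell in naive knockouts, Il31ra itself (-2.19 ± 0.22, adjusted p = 5.5e-05). After SNI, where 1.04% of all genes were called, 1 of the 3 Mrgpra3 class genes rose. There 2 of the 7 Il31ra class genes fell, Il31ra and the neurotensin gene Nts (-1.16 and -1.50, edgeR adjusted p = 0.0365 and 0.0391). Il31ra was called in 2 of the 6 fits without 1 library, with an edgeR adjusted p of up to 0.157. Nts spanned 119 to 264 CPM in control SNI ganglia. The Il31ra class list summed to 445 CPM in control SNI replicate 23, where the lowest and median of that group were 253 and 254 CPM. In the average over both conditions, a contrast chosen after seeing the values, 5 of the 7 Il31ra class genes fell. There 4.17% of all genes were called and 1.98% called lower. Trpa1 thus ran in the direction of P2rx3 and Il31ra and opposite to Mrgpra3, and the part of any of these classes in its values was not tested.

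Among 5 other genes linked to cold-sensing neurons, 1 was called in each condition, beside 1.89% of all genes in naive and 1.04% in SNI ganglia. This was Cdh8, a cadherin. It had 16.2, 15.4, 17.9 and 15.9 CPM in naive knockouts, against 20.6, 23.4, 23.96, 24.6 and 22.7 CPM in naive controls (log2 fold change -0.49 ± 0.09, edgeR adjusted p = 0.00895). After SNI it had 15.4, 13.5 and 15.3 CPM in knockouts and 22.8, 19.1 and 21.3 CPM in controls (-0.52 ± 0.12, adjusted p = 0.0401; called in 2 of the 6 fits without 1 library, with up to 0.196). The other 4 did not pass the test in either condition. The estimates in naive ganglia were -1.18 for Rxfp1, a relaxin receptor, 0.59 for Penk, which encodes enkephalins, 0.29 for Kcnk4, a potassium channel, and -0.37 for Foxs1, a transcription factor. Rxfp1 averaged 1.43 CPM in naive knockouts and 3.29 CPM in naive controls, and 1.19 CPM in knockout SNI and 4.64 CPM in control SNI ganglia (log2 fold change -1.87, adjusted p = 0.145). The list summed to 44.1 to 64.5 CPM in naive knockouts and 48.6 to 59.8 CPM in naive controls, and to 47.1 to 71.9 CPM in knockout SNI and 46.9 to 64.5 CPM in control SNI ganglia. The summed list overlapped between genotypes, and Penk alone spanned 12.002 to 33.8 CPM in naive knockouts and 7.46 to 19.96 CPM in naive controls. None of the 8 peptidergic nociceptor genes and none of the 3 nociceptor sodium channel genes (Scn9a, Scn10a and Scn11a) was called for knockout against control in naive ganglia, where Trpv1 overlapped too. After SNI 1 of the 8 peptidergic genes fell, where 1.04% of all genes were called. It was the calcitonin gene-related peptide gene Calcb (-0.91 ± 0.18, edgeR adjusted p = 0.0224). Calcb spanned 92.1 to 181 CPM in control SNI ganglia and 61.3 to 72.3 CPM in knockout SNI ganglia. The peptidergic list summed to 3247 CPM in control SNI replicate 23, where the lowest and median of that group were 1619 and 1620 CPM. Calcb was not tested without that replicate.

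The Trpc genes gave no call in any of the 5 comparisons. Trpc1 (chromosome 9, 95705082 to 95750375, minus strand), a broadly expressed subunit that joins other Trpc channels, had 27.7, 26.6, 25.2 and 26.5 CPM in naive knockouts and 26.5, 25.0, 25.2, 29.8 and 27.3 CPM in naive controls. It had 27.8, 24.2 and 24.2 CPM in knockout SNI ganglia and 27.8, 26.0 and 20.7 CPM in control SNI ganglia. These groups overlapped, and the 95% interval of the log2 fold change for knockout against control in naive ganglia was -0.21 to 0.19, the narrowest of the 9 genes after that of Trpv2. Trpc6 (chromosome 9, 8544142 to 8680741, plus strand), a diacylglycerol-gated channel with seed matches for miR-183 and miR-96, had 17.1, 22.97, 19.8 and 19.96 CPM in naive knockouts and 21.05, 24.8, 20.4, 24.6 and 23.9 CPM in naive controls. After SNI it had 21.7, 12.1 and 18.4 CPM in knockouts and 21.2, 17.4 and 27.4 CPM in controls. Its estimates for knockout against control were below 0, at -0.20 ± 0.15 in naive and -0.33 ± 0.19 in SNI ganglia (edgeR adjusted p = 0.728 and 0.315), the second being -0.16 (adjusted p = 0.773) without control SNI replicate 23. Trpc5 (chromosome X, 144381671 to 144688180, minus strand), a cold-sensitive channel, was close to the limit of the depth with 172 counts in all, 0.495 to 1.57 CPM in naive knockouts and 1.21 to 2.06 CPM in naive controls. Its level was 0.662 to 2.02 CPM in knockout SNI ganglia and 0.216 to 1.98 CPM in control SNI ganglia, and its intervals (-1.47 to 0.36 for knockout against control in naive ganglia) allowed changes in either direction.

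Over the 15 libraries the 9 genes did not move as 1 block. Correlations of log2 CPM are given as descriptions, since all genes share each library's depth and composition. Trpa1 and Trpm8 had r = 0.57 over 15 libraries and 0.87 without control SNI replicate 23, where Trpa1 was the highest of its group and Trpm8 the lowest. Within groups, after subtracting each group mean, their r was -0.11, and 0.43 without that replicate. Within groups Trpm8 had r = 0.89 with Trpm2 and 0.86 with Trpc1, and 0.78 and 0.73 without it. The genes most like Trpa1 were Iqcg (r = 0.95), Slc16a12 (0.93) and Smim20 (0.93), out of 13932 compared, and those most like Trpm8 included Pde11a (0.95) and Ralgapa1 (0.93). For the heat channels they were Dhx58, Lonp2 and Agk for Trpv1 (r 0.83 to 0.84), Dpp3, Slc37a1 and Washc2 for Trpv2 (0.86 to 0.88), Zbtb20, Kmt2c and Arhgef28 for Trpm3 (0.92), and Tnrc6a, Usp48 and Ubp1 for Trpm2 (0.91 to 0.92, and 0.77 to 0.80 without replicate 23). For Trpc1 they were Gosr1, Col19a1 and Trim56 (0.89 to 0.90, and 0.74 to 0.83 without replicate 23). For Trpc5 they were Prkcz, Kcnip3 and Shisal1 (0.87 to 0.89, and 0.77 to 0.85 without it). For Trpc6 they were Dpp10, Ano3 and Ldb2 (0.89 to 0.91, and 0.87 to 0.89 without it). No gene of the 9 was among the 3 most like another.

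Of 19 other TRP channel genes, 14 were tested, and 3 were called in at least 1 of the 5 comparisons. Trpm6, a magnesium channel with its own kinase domain, fell in naive knockouts by edgeR (log2 fold change -1.01 ± 0.23, adjusted p = 0.0322). It had 2.34, 1.98, 1.80 and 1.96 CPM in knockouts, against 3.54, 4.13, 3.08, 5.64 and 3.96 CPM in controls. Of the 14, 1 was called there, beside 1.89% of all genes. That call held in 1 of the 9 fits without 1 library, the adjusted p reaching 0.115 without knockout naive replicate 8. Mcoln2, a channel of endosomes and lysosomes known from immune cells, rose after SNI in both genotypes. It had 2.65, 5.77 and 3.20 CPM in knockout SNI ganglia, against 0.305, 0.396, 0.380 and 0.783 CPM in naive knockouts (log2 fold change 3.09 ± 0.35, edgeR adjusted p = 2.61e-05). In controls it had 3.54, 4.02 and 3.02 CPM after SNI, against 0.688, 1.03, 0.559, 0.728 and 0.645 CPM in naive ganglia (2.29 ± 0.31, adjusted p = 2.72e-04), and it was called without each library in turn in both genotypes. Macrophage genes rose in the same comparisons, as given above with Trpv2, and their part in Mcoln2 was not tested.

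Trpc4, which forms channels with Trpc1 and Trpc5, fell after SNI in knockouts, with 3.79, 2.08 and 3.70 CPM, against 5.79, 4.95, 5.41 and 6.26 CPM in naive knockouts (log2 fold change -0.82 ± 0.23, edgeR adjusted p = 0.0341; called in 1 of the 7 fits without 1 library, with up to 0.193). None of the 14 was called for knockout against control after SNI. Among those with the highest level per length, Pkd2l2, Mcoln1 and Trpm7 averaged 6.33 to 7.69 CPM per kb in the 4 groups and were not called. The median log2 fold change of the 14 tested was -0.08 for knockout against control in naive ganglia, beside 0.00 over all genes.

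**Figure D5:**
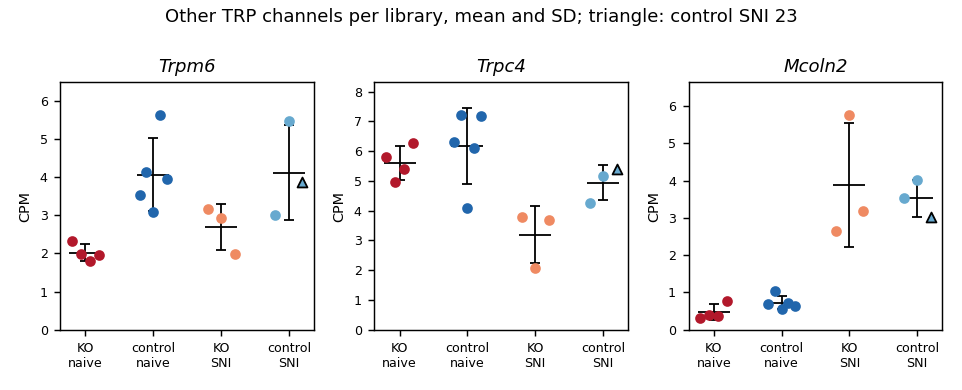
CPM of Trpm6, Trpc4 and Mcoln2 in each library (points) with the mean and SD of each group (bars), from knockout naive, control naive and knockout SNI to control SNI; the triangle marks control SNI replicate 23. Trpm6 in naive knockouts (1.80 to 2.34 CPM) lies below all naive controls (3.08 to 5.64 CPM), and Mcoln2 in all SNI libraries (2.65 to 5.77 CPM) lies above all naive ones.

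Genes that modulate TRP channels (kinases, G proteins, inflammatory mediator receptors and accessory proteins) were mostly not called. Of 23 tested in naive ganglia, 1 rose and none fell in knockouts, where 1.89% of all genes were called. This was Prkce, the protein kinase C isoform that phosphorylates and sensitises Trpv1. It had 339, 328, 275 and 366 CPM in knockouts, against 242, 253, 208, 264 and 216 CPM in controls (log2 fold change 0.47 ± 0.10, edgeR adjusted p = 0.0292). Prkce was called in 2 of the 9 fits without 1 library, with an adjusted p of up to 0.142. None of the 23 was called for knockout against control after SNI or for SNI against naive in controls, where 1.04% and 2.48% of all genes were called. In knockouts 3 of the 23 rose after SNI, in a comparison where 10.1% of all genes were called. Gfra3, the artemin receptor of Trpv1 and Trpa1 neurons, had 88.4, 104 and 77.8 CPM after SNI, against 41.4, 49.3, 57.8 and 48.5 CPM in naive knockouts (log2 fold change 0.87 ± 0.14, edgeR adjusted p = 7.76e-04). The other 2 were Pik3r1, a regulatory subunit of phosphoinositide 3-kinase (0.35 ± 0.08, adjusted p = 0.00823), and the bradykinin receptor gene Bdkrb2 (1.07 ± 0.33, adjusted p = 0.0462; called in 2 of the 7 fits without 1 library, with up to 0.337).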

How the data were processed

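Per the labels' protocols, total RNA (Trizol) of each mouse's ganglia was the input of a stranded TruSeq mRNA kit. The deposited values are raw counts per Ensembl gene. GRCm38 and, as tools with no stated role, HTSeq 0.6.1, TopHat2 2.0.4, DESeq2, Cufflinks and SAMtools stand in the submitters' processing notes; how strand and multi-mapping reads were treated, and which annotation release was used, is not given in the sources used here. Symbols, exon lengths and 3′ UTRs came from GENCODE M21 (GRCm38), which named 96.2% of the 39179 identifiers.

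Counts were tested with edgeR 4.0.16 (R 4.3.3): TMM scaling, filterByExpr (minimum count 10), 1 quasi-likelihood model of 4 group means over all 15 libraries (11 residual degrees of freedom) and Benjamini-Hochberg adjustment over 16976 genes, called under 0.05. The standard error is the log2 fold change divided by the root of the F statistic. The scripts were tested on simulated data. Alternatives were DESeq2 1.42.0, limma-voom (limma 3.58.1), RLE size factors, other filters, 2-group fits, Wnt1-Cre controls only and each library left out.

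The genes and lists were chosen with earlier results of these data known. Named genes were all 9 members; other channels called in any of the 5 comparisons or among the 4 highest per length; called modulators, up to 6 per comparison; for marker lists, up to 3 genes; and for each member, the 3 tested genes (mean level of 1 CPM or more) best correlated with it in log2 CPM; 2 genes these rules name are not reported here. Each library is 1 animal, and the 95% intervals come from the edgeR fit, which includes the spread between animals.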

Additional observations from a re-analysis of the deposited data

How the results depend on the processing

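Of 1079 values of the 9 genes under other settings, 1032 kept their side of the threshold and their direction, apart from 71 that changed sign within 1 SE; 17 gained a call, 13 lost one and 17 changed sign with a move of more than 1 SE. Genes called of the 9: knockout against control, naive, 0, and 2 with DESeq2, in the 2-group fit and with Wnt1-Cre controls only (0 without any 1 library); SNI against naive in controls, 0, and 1 with DESeq2 (0 to 1 without 1 library); in knockouts, 0, and 1 in the 2-group fit (0 to 1); knockout against control after SNI, 0, and 1 with DESeq2 (0 to 1); mean genotype effect, 1, and 2 with Wnt1-Cre controls only (1 to 2); mean injury effect, 1, and 0 without the count filter or with Wnt1-Cre controls only (0 to 2). With Wnt1-Cre controls only, the log2 fold changes that turned were, for SNI against naive in controls, Trpv2 0.17, Trpc1 0.0789 and Trpc5 0.38; for knockout against control after SNI, Trpv2 -0.0358, Trpc1 -0.14 and Trpc5 -0.79; for the difference between injury effects, Trpv2 -0.00921, Trpc1 -0.13 and Trpc5 -0.18; and for the mean injury effect, Trpc1 0.0122 and Trpc5 0.29. Leaving out 1 library, the values that changed sign with a move of more than 1 SE had these ranges: in controls, Trpm3 -0.32 to 0.0588 and Trpc1 -0.18 to 0.0122 (turned without SNI replicate 23); in knockouts, Trpm3 -0.10 to 0.18 and Trpc5 -0.37 to 0.49 (without SNI replicate 13) and Trpc6 -0.39 to 0.00338 (without SNI replicate 19); and for the mean genotype effect, Trpc5 -0.49 to 0.34 (without control SNI replicate 15). The causes were not tested.

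Counts of all genes called moved more than those of the 9: knockout against control, naive, 321, against 515 with DESeq2, 1016 in the 2-group fit and 151 to 229 without 1 library; after SNI, 177, against 925, 0 and 57 to 3560; SNI against naive in controls, 421, against 673, 213 and 283 to 1506; in knockouts, 1717, against 2250, 4434 and 587 to 1626; difference between injury effects, 0, against 12 with DESeq2 and 0 to 1235 without 1 library. No paired analysis was possible because the groups share no replicate numbers. The 3 SNI libraries a group limit what could be seen there, and Trpc5 was limited by its 172 counts.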
